A study of Mus musculus with 8 samples.

Results

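The Agilent mouse array used here carries, beside its probes for named transcripts, probes that the files name only by a genomic interval of the mm9 build and a suffix, F or R, read here as the 2 strands of that interval. The intervals on chromosomes 1 to 19 other than 8 were examined. Of 14596 such probes, among 55681 non-control probes in all, 4190 were well above background on all 8 arrays, and these detected interval probes are described below. They were chosen by the scanner software's detection flags alone, so the detection counts and signals are given as a description and were not tested. The files give no transcript, gene or exon for these probes, and whether an interval holds a long intergenic non-coding RNA could not be read from them. The intervals are therefore called by their positions.

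RNA came from total liver of 10-week-old mice on a C57BL6/129SV background (90% and 10%). Group 1 was 4 Rap1 -/- mice and group 2 was 4 wild-type mice, with 1 mouse per array. Rap1, encoded by Terf2ip, was deleted in the whole body and from early development with a cre under the adenovirus EIIa promoter. Per the study's methods the young mice profiled were females, which the labels do not state.

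Long non-coding RNAs are transcripts without a long open reading frame that can act in the nucleus on chromatin, splicing or nuclear bodies, or in the cytoplasm on other RNAs. Many are transcribed from both strands of a locus or from the strand opposite to a protein-coding gene. Most are present at fewer copies per cell than messenger RNAs. RAP1 is a shelterin subunit at telomeres and also binds sites along the chromosome arms, which is why transcripts without a gene name are of interest in its absence.

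The labels were checked first. Terf2ip probe A_52_P381806 gave signals between 0.03 and 0.23 in the 4 wild-type livers and between -6.57 and -5.65 in the 4 Rap1 -/- livers, where it was not well above background (at least 18.96-fold lower, limma adjusted p = 7.09e-06). A second probe of the same accession, A_55_P2094079, was detected on all arrays and lay at -0.92 ± 0.22 in wild-type and 0.29 ± 0.18 in Rap1 -/- liver (SD, n = 4, limma adjusted p = 0.127). Its place relative to the deleted part is not known here, and it checks nothing about the labels. Here and below, signal is the log2 of the processed intensity minus the 75th percentile of the same array, so 0 is the level of that percentile. Marker sums below are the log2 of the summed intensities of a cell type's markers, so the brightest markers weigh most. All 7 hepatocyte markers were detected on 8 arrays, and their summed signal ran from 12.74 to 12.90 in wild-type and from 12.62 to 12.72 in Rap1 -/- livers. These ranges did not overlap, which does not speak for each of the 7 markers. The 4 Kupffer cell, 4 sinusoidal endothelial, 3 stellate and 4 cholangiocyte markers were also all detected on 8 arrays, with overlapping ranges between genotypes. The summed signal of 3 matched T cell markers ran from 2.35 to 2.54 in wild-type and from 1.97 to 2.32 in Rap1 -/- livers. None of the 4 pancreatic acinar or 3 adipocyte markers was detected on 8 arrays, although the adipocyte sum reached 1.88 in 1 Rap1 -/- liver against at most -1.76 in wild-type liver, and the part of any of these in the results was not tested. In whole liver, fewer cells of a type and less RNA per cell cannot be told apart.

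Interval probes were detected less often than the rest of the array. The 4190 detected probes were 28.7% of the interval probes on these chromosomes, against 55.1% of the 39487 probes named by an accession or clone. A further 5482 interval probes (37.6%) were not well above background on any array. Between these ends lay 539 probes detected on 7 arrays, 370 on 6, 326 on 5 and 360 on 4. The share of interval probes well above background on a single array ran from 36.3% to 53.3% in wild-type and from 32.1% to 41.7% in Rap1 -/- livers. Rap1 -/- replicate 1 had the lowest share and wild-type replicate 4 the highest, and without Rap1 -/- replicate 1 the other 7 arrays shared 4558 detected probes.

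Every chromosome contributed. Chromosome 14 had the highest detected share, 252 of 717 probes (35.1%), followed by chromosome 17 with 312 of 904 (34.5%) and chromosome 19 with 109 of 322 (33.9%). Chromosome 9 had the lowest, 159 of 736 (21.6%), and the median over the 18 chromosomes was 28.8%. For comparison, 31.2% of the interval probes on chromosome 8 and 21.5% of those on X were detected. F and R probes contributed nearly equally, with 2024 of 7381 (27.4%) and 2160 of 7202 (29.99%) detected, and 6 detected probes carried no suffix.

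**Figure D1:**
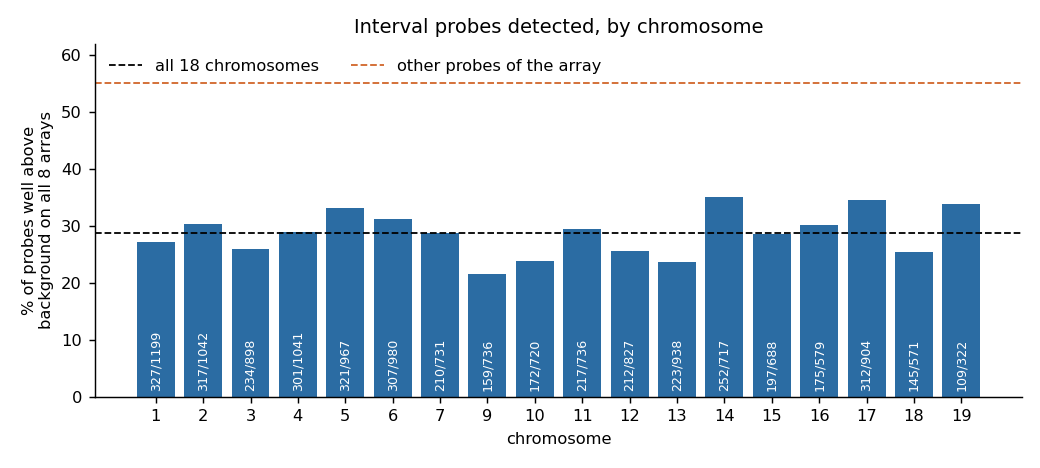
Bars give the percentage of interval probes on each chromosome that were well above background on all 8 arrays, with the number detected and the number on the array written in each bar; the dashed lines mark 28.7% for all 18 chromosomes and 55.1% for the other probes of the array. Chromosome 14 is highest at 35.1% and chromosome 9 lowest at 21.6%.

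The detected probes came from 2261 of 4143 interval names, a name being an interval together with its strand. Many names overlap, and merging all overlapping intervals left 1999 loci, of which 1317 held a detected probe and 487 held exactly 1. Of the 2055 names that had several probes and at least 1 detected, all probes were detected in 299. The median length of names with a detected probe was 12295 bases, against 8401 bases for names without. The share of detected probes was 23.9% for intervals under 1 kb, 29.7% from 1 to 10 kb, 29.8% from 10 to 50 kb and 28.8% from 50 kb upwards. The shortest with a detected probe, chr10:83399729-83399790 (F), spans 62 bases, little more than a probe, and gave signals between -3.21 and -2.08 over the 8 arrays. The longest with a detected probe, chr3:34003359-34537330 (F), spans 533972 bases, and its probe A_30_P01018719 gave signals between -0.96 and -0.11.

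Signals of the detected interval probes were low. Their median over 8 arrays was -1.42, the middle 50% lay between -2.30 and -0.04, and 24.3% were above 0. The 21773 other probes detected on all arrays had a median of 0.65, with 58.7% above 0. The lowest mean among the interval probes was -3.54, of A_30_P01022839 at chr13:112337405-112356455 (F), and A_30_P01029454 at chr2:175640275-175701875 (R) followed at -3.53. Just outside the rule, A_30_P01030223 at chr2:119697845-119719245 (F) had a mean of -2.07 and A_30_P01019021 at chr17:31694070-31696057 (F) one of -2.14, each detected on 7 arrays. The array that missed them was Rap1 -/- replicate 1 in both cases, with signals of -3.44 and -3.32. Within a name, the mean signals of the detected probes spanned a median of 1.52 over 1026 names with at least 2 of them, and 11.4 at most, so probes of 1 interval cannot stand for each other. A signal also depends on how well a probe hybridizes, and levels of different probes are therefore not ranked as RNA levels.

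The 10 brightest detected probes had mean signals from 7.94 to 9.05. They lay at chr14:78924115-78938125 (F), chr19:5801802-5802597 (R), chr6:116092274-116144199 (F), chr12:73838608-73862621 (both R and F), chr17:17481706-17482457 (R), chr6:83368261-83407280 (F), chr17:39982023-39983277 (F), chr2:31714946-31716972 (F) and chr14:22267795-22319045 (F). The first, A_30_P01031448, gave 9.63, 8.83, 9.09 and 9.23 in wild-type replicates 1 to 4 and 8.95, 8.77, 9.19 and 8.72 in Rap1 -/- replicates 1 to 4. The groups overlapped, with a difference of -0.29 ± 0.19 (Rap1 -/- minus wild-type, limma SE, adjusted p = 0.839). Several of these probes followed the same course over the arrays although they lie on different chromosomes. The 8 signals of the chr14:78924115-78938125 probe correlated with those of the chr6:83368261-83407280 probe at r = 0.992 and with those of the chr6:116092274-116144199 probe at r = 0.983, a description over 8 arrays that share their scaling. All 3 were highest in wild-type replicate 1 and lowest in Rap1 -/- replicate 4. Only 1 of the 10 separated the genotypes, namely A_30_P01026230 at chr2:31714946-31716972, whose 4 wild-type signals of 8.41, 8.31, 8.26 and 8.24 all lay above the Rap1 -/- signals of 8.18, 7.95, 8.17 and 7.88. Its difference was -0.26 ± 0.11, unadjusted p = 0.0444 and adjusted p = 0.809 by limma, and therefore did not pass.

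The comparison the design allows is Rap1 -/- against wild-type liver. It was fitted with limma over all 31069 probes well above background on at least 4 arrays, with p-values adjusted over all of them. None of the 4190 detected interval probes passed an adjusted p of 0.05, where 0.00644% of all tested probes did, and the smallest adjusted p among them was 0.809. At an unadjusted p of 0.05, 78 interval probes (1.86%) were higher and 176 (4.20%) were lower in Rap1 -/- liver. Over all tested probes these shares were 2.81% and 3.3%, and over the 26406 tested probes detected on all arrays they were 2.91% and 2.44%. The share of higher probes was thus below the background and the share of lower probes above it. With quantile normalization the counts were 106 higher and 134 lower, and with cyclic loess 104 and 136, and the higher probes made up 44.2% and 43.3% of those past the unadjusted threshold in place of 30.7%. The interval probes' shares were then 2.53% higher and 3.20% lower with quantile normalization, against 2.8% and 2.03% of the 26406 probes, and 2.48% and 3.25% with cyclic loess, against 2.77% and 2.11%.

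A count without a model was made on the same values and scaling, so it is not independent of the fit. For 52 interval probes (1.24%) the 4 Rap1 -/- values all lay above the 4 wild-type values, and for 114 (2.72%) they all lay below. Among all tested probes detected on 8 arrays the shares were 2.7% and 1.54%. With this scaling, both ways of counting gave fewer higher and more lower interval probes than the array at large. Large differences were few. They ran from -1.29 to 1.03, only 9 exceeded 1 in size, and 90% lay between -0.41 and 0.28, with a median SE of 0.17.

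The centre of the distribution was slightly below 0. The median difference of the interval probes was -0.07, a 1.05-fold lower signal, and 2687 of them (64.1%) were below 0, against a median of 0.02 and 44.7% below 0 for the 22216 other tested probes detected on 8 arrays. The median stayed below 0 with every other scaling tried, at -0.03 with quantile normalization, -0.04 with cyclic loess and -0.02 both with normexp and in the table of processed values. Relative to the wild-type mean of each probe, the median interval probe was at 0.06, -0.04, -0.02 and -0.01 in wild-type replicates 1 to 4 and at 0.02, -0.10, -0.11 and -0.06 in Rap1 -/- replicates 1 to 4. Rap1 -/- replicate 1 overlapped the wild-type arrays and the other 3 lay below them. Within slide 1 the median difference was -0.05 and within slide 2 it was -0.08. Position on the slide cannot be told apart from genotype.

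The distance between interval probes and other probes was widest where the signal was high, which is given here as a description without a test. Among probes with a mean signal of at least 4, the median difference was -0.06 for the 119 interval probes, from 80 loci, and 0.06 for 3494 other probes, with 59.7% and 30.9% of them below 0. Quantile normalization gave -0.11 and 0.00, cyclic loess -0.11 and 0.00, and normexp -0.11 and 0.00. Between signals of -3 and -2, where 1251 interval probes lay, the medians were -0.08 and -0.06, and quantile normalization turned both to 0.03 and 0.06. Below -3 they were -0.04 and -0.04, and 0.17 and 0.17 after quantile normalization. The sign at low signal thus depended on the scaling, while the bright interval probes lay below the other bright probes under each of the 4 scalings. Leaving out 1 array at a time moved the median of the 119 between -0.10 and -0.02, and within slides 1 and 2 it was -0.14 and -0.02. By array, their median relative to the wild-type mean was 0.11, 0.01, 0.01 and -0.11 in wild-type and 0.03, -0.13, -0.03 and -0.07 in Rap1 -/- liver, so the groups overlapped.

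**Figure D2:**
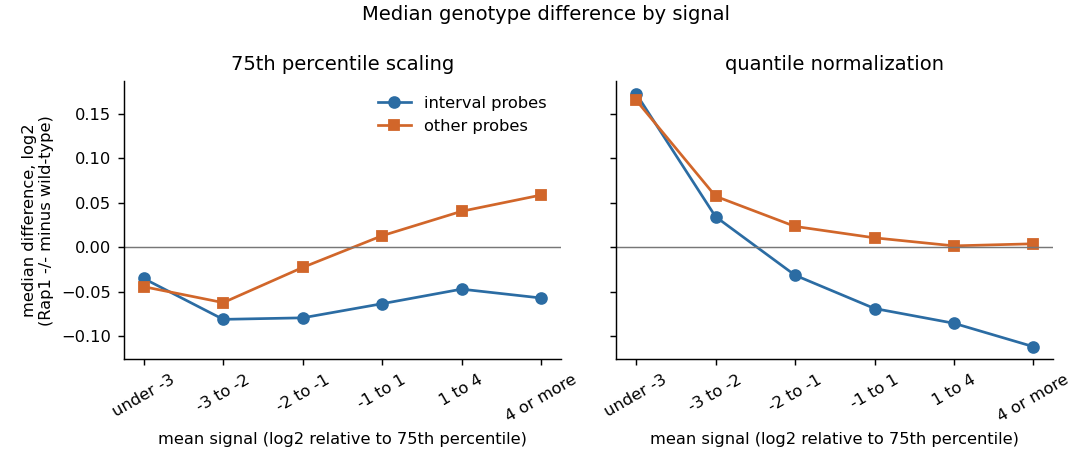
Median log2 difference (Rap1 -/- minus wild-type) in 6 classes of mean signal for the detected interval probes (circles) and for the other tested probes detected on 8 arrays (squares), with each array scaled to its 75th percentile (left) or after quantile normalization (right). Interval and other probes coincide in the dimmest class, and in the brightest class the medians are -0.06 and 0.06 on the left and -0.11 and 0.00 on the right.

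By chromosome, the median difference ran from -0.10 on chromosome 17 to -0.03 on chromosome 16 and was below 0 on all 18, although chromosome 16 was at or just above 0 with quantile normalization, normexp and the table of processed values. The largest counts of lower probes at an unadjusted p under 0.05 were on chromosomes 17, 1 and 4. They held 4 higher and 19 lower of 312 detected probes, 3 and 16 of 327, and 4 and 15 of 301. Chromosomes 3, 7 and 10 held more higher than lower probes. Their counts were 12 and 10 of 234, 8 and 6 of 210, and 5 and 4 of 172. Over all detected interval probes 1.86% were higher and 4.20% lower, against 2.91% and 2.44% of all tested probes detected on 8 arrays. F probes had a median difference of -0.07 and R probes one of -0.06. Because RAP1 is a telomere protein, the ends of the chromosomes were looked at apart. The 247 interval probes within 5 Mb of the most distal interval of their chromosome had a median difference of -0.12, with 73.3% below 0. At an unadjusted p under 0.05, 3 of them (1.21%) were higher and 15 (6.07%) lower. Over all tested probes these shares were 2.81% and 3.3%, and over those detected on 8 arrays 2.91% and 2.44%. The 218 probes that start before 8 Mb had a median of -0.08, with 2 (0.92%) higher and 7 (3.21%) lower. The 3725 elsewhere had a median of -0.06, with 73 (1.96%) higher and 154 (4.13%) lower. With quantile normalization the 3 medians were -0.07, -0.03 and -0.03. The distal probes thus had the lowest median under both scalings, and the difference between these sets was not tested.

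The 8 interval probes with the smallest p among those with higher mean signal in Rap1 -/- liver came from 6 loci. At chr7:67111261-67120645 (R), probe A_30_P01029835 gave -2.12, -2.19, -2.52 and -2.51 in wild-type replicates 1 to 4 and -1.40, -1.91, -1.70 and -1.71 in Rap1 -/- replicates 1 to 4. The groups did not overlap, and the means of -2.33 ± 0.21 and -1.68 ± 0.21 (SD, n = 4) differed by 0.65 ± 0.15 (limma SE, adjusted p = 0.809). Both probes of the overlapping name chr7:67111261-67120697 (R) were also higher, by 0.67 and 0.71. These 3 probes are all that were tested at this locus, and since they may read the same RNA they are not independent.

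Also on chromosome 7, the interval chr7:99879368-99889978 carries 10 probes on each strand. F probe A_30_P01031542 gave -2.70, -2.70, -2.70 and -3.04 in wild-type liver and -2.43, -2.11, -2.28 and -2.26 in Rap1 -/- liver, a difference of 0.51 ± 0.12. F probe A_30_P01019526 had a difference of 0.44 ± 0.12, with group means of -1.28 ± 0.11 and -0.85 ± 0.18 (SD, n = 4). The 4 Rap1 -/- values of each lay above the 4 wild-type values, whereas the other 2 detected F probes had differences of -0.10 and 0.24. On the R strand, 6 probes were detected with differences from 0.03 to 0.51. The 3 probes of the shorter name chr7:99882675-99883730 (R) had differences of 0.03 to 0.19. The interval thus held probes with and without a separation of the genotypes.

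At chr4:21683562-21694350 (R) both probes of the name were detected. A_30_P01025316 gave 0.77, 0.64, 0.73 and 0.74 in wild-type and 1.10, 1.15, 1.24 and 0.98 in Rap1 -/- liver, with a difference of 0.40 ± 0.10, and the other probe had one of 0.36 ± 0.10. The groups did not overlap, either for A_30_P01025316 or for the mean of both probes, which was 1.31 ± 0.04 in wild-type and 1.70 ± 0.09 in Rap1 -/- liver (SD, n = 4). The name chr4:21683562-21694344 (R), which differs at its end by a few bases, had 1 detected probe with a difference of 0.09 ± 0.15, while its probes detected on 7 and on 4 arrays differed by 0.61 ± 0.32 and 1.55 ± 0.55. The overlapping names thus did not give 1 value.

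Of the remaining higher probes, A_30_P01029845 at chr3:41143423-41359623 (R) was at -1.15 ± 0.04 in wild-type and -0.67 ± 0.19 in Rap1 -/- liver (SD, n = 4), and was the only detected R probe of 10. A_30_P01022276 at chr13:28947034-28949166 (R) had the largest difference of the 8, 0.85 ± 0.23, with means of -2.54 ± 0.36 in wild-type and -1.69 ± 0.38 in Rap1 -/- liver (SD, n = 4), and the second detected probe of that name differed by 0.33 ± 0.25. A_30_P01022030 at chr16:23992037-24001037 (F) differed by 0.59 ± 0.17, but wild-type replicate 1 at 0.64 lay within the Rap1 -/- range of 0.64 to 1.13. The other 5 detected probes of the name had differences from -0.01 to 0.55, the highest with an unadjusted p of 0.028. A_30_P01022030 was the only one of these 8 whose groups touched, with a two-sided exact permutation p of 0.0571 against 0.0286 for the other 7. This test goes through 70 groupings of the arrays, so that 0.0286 is the smallest p it can give.

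Among the 8 interval probes with the smallest p and lower mean signal, the largest difference was at chr7:134649844-134651551 (F). A_30_P01033069 gave -1.91, -1.72, -2.23 and -1.43 in wild-type and -3.01, -3.11, -2.40 and -3.16 in Rap1 -/- liver, with means of -1.82 ± 0.33 and -2.92 ± 0.36 (SD, n = 4). The groups did not overlap and the difference of -1.10 ± 0.22, 2.14-fold, had an unadjusted p of 0.000796 and an adjusted p of 0.809 by limma. With normexp background correction and quantile normalization it was -0.42, 1.34-fold. A second probe of the name, detected on 4 arrays only and with a mean signal of -3.77, differed by -0.77 ± 0.29. In the neighbouring name chr7:134643558-134644056 (F), the probe detected on 8 arrays differed by -0.08 ± 0.16. Those detected on 6 and on 5 arrays differed by -0.77 ± 0.63 and -0.68 ± 0.40.

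A_30_P01030381 at chr17:88225376-88238756 (F) gave -0.64, -0.72, -0.76 and -0.65 in wild-type and -1.73, -1.88, -1.04 and -1.68 in Rap1 -/- liver. The wild-type livers lay close together and every Rap1 -/- liver was lower, replicate 3 least. The difference was -0.89 ± 0.18, and without Rap1 -/- replicate 3 it was -1.07 with an adjusted p of 0.115, the smallest adjusted p of any interval probe under any setting tried. The 2 R probes of the same interval had differences of -0.03 ± 0.13 and 0.10 ± 0.18.

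A_30_P01026902 at chr5:111612191-111652286 (F) had the smallest unadjusted p of the interval probes detected on all 8 arrays, 0.000773, with means of -2.74 ± 0.20 in wild-type and -3.46 ± 0.19 in Rap1 -/- liver (SD, n = 4). The second detected probe of that name differed by -0.05 ± 0.29. A_30_P01029711 at chr3:37568488-37568964 (F) gave 0.05, -0.03, -0.09 and 0.42 in wild-type and -0.42, -0.73, -0.53 and -0.46 in Rap1 -/- liver, a difference of -0.62 ± 0.14. The second probe of its name, detected on 4 arrays, differed by -0.46 ± 0.92. It lies inside the longer interval chr3:37543523-37613073. Of the probes of that interval detected on 8 arrays, the F probe differed by 0.03 ± 0.15 and the R probes by -0.15 and -0.10. Its dimmer F probes, detected on 6 and on 4 arrays, differed by -0.69 ± 0.43 and -0.62 ± 0.39. Other F names inside it differed by -0.003 ± 0.18 and 0.21 ± 0.24 (8 arrays) and -0.60 ± 0.22 (4 arrays). A_30_P01022708 at chr9:67480847-67481797 (R), A_30_P01024305 at chr9:68318706-68351191 (R) and A_30_P01032163 at chr9:20311197-20325858 (R) differed by -0.52 ± 0.12, -0.77 ± 0.18 and -0.48 ± 0.11. The R probes of the name overlapping the first differed by -0.20 ± 0.22 and 0.15 ± 0.21. An R probe overlapping the second, detected on 5 arrays, differed by -0.52 ± 0.32. The other detected probes of the third name differed by -0.20 ± 0.18 and -0.14 ± 0.14. The last of the 8, A_30_P01032409 at chr4:136856064-136877219 (F), differed by -0.67 ± 0.15 and is described with its opposite strand. The groups did not overlap for any of these 8 probes, and none passed after adjustment. With normexp background correction and quantile normalization, 13 of the 16 named higher and lower probes had a difference more than 1.5 times smaller, for example -0.20 for A_30_P01026902, and 14 kept an unadjusted p under 0.05. The other 2, A_30_P01022708 and A_30_P01032163, were at -0.16 and -0.14.

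**Figure D3:**
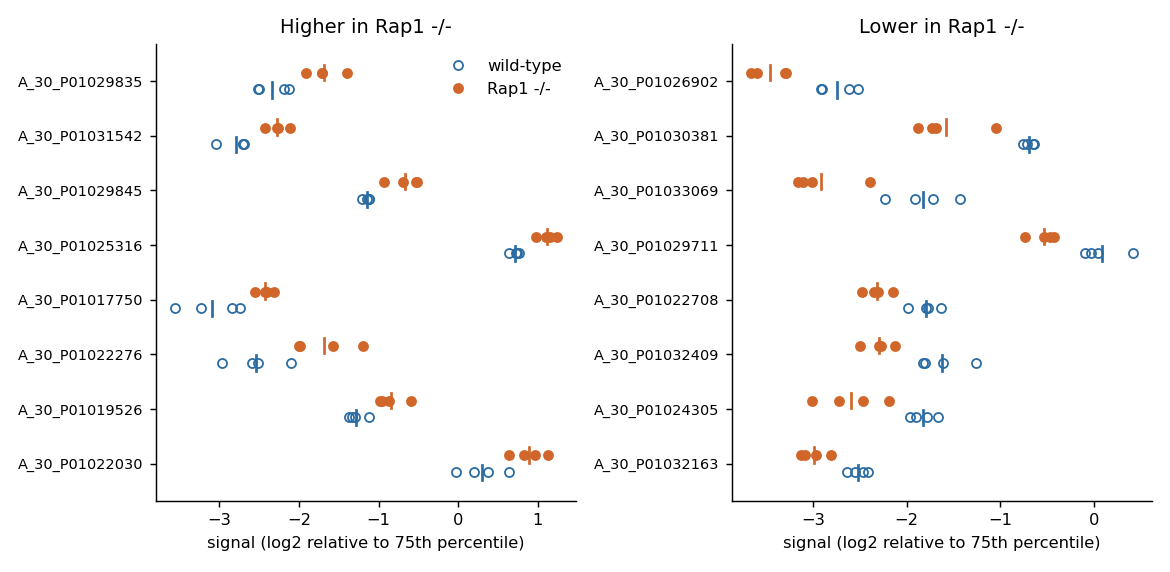
Signals (log2 relative to the array's 75th percentile) of the 8 detected interval probes with the smallest p and higher (left) or lower (right) mean signal in Rap1 -/- liver, in order of p. Open points are the 4 wild-type and filled points the 4 Rap1 -/- livers, vertical bars are group means, and the groups touch only for A_30_P01022030.

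Where several probes read 1 name, agreement among them could be seen. Of the 1026 names with at least 2 detected probes, all differences were below 0 in 407, all above 0 in 163 and of both signs in 456. The differences within a name spanned a median of 0.19. At least 2 probes were past an unadjusted p of 0.05 in 28 of the 1026 names. Of these 28, 11 had higher, 15 lower and 2 opposite signals. Within a genotype, probes of the same name varied together (median r of 0.45 over 3595 pairs of probes), so their p-values are not independent. No matching share was computed for other features with several probes, and whether 28 is more than chance would give was not tested. Averaging the tested probes of each name before the fit left 2261 names with a detected probe, and again 0 passed (smallest adjusted p = 0.788, limma). At an unadjusted p of 0.05, 32 names (1.42%) were higher and 121 (5.35%) lower, against 3.02% and 3.21% over all 27737 features of that fit. The median over names was -0.08.

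Of the 28 names, the following were chosen after their values were seen. At chr3:21964899-21974524 (R) all 5 probes were detected, all 5 were past the unadjusted threshold, and their differences ran from 0.69 to 0.88. The mean of the 5 was -1.13, -1.56, -1.65 and -1.80 in wild-type and -0.37, -0.78, -0.18 and -1.61 in Rap1 -/- liver. Rap1 -/- replicates 1 to 3 lay above every wild-type liver and replicate 4 lay among them, with a difference of 0.80 ± 0.30 for the averaged name. At chr14:77511189-77522852 (F) all 5 probes were detected with differences from 0.31 to 0.44, and the mean was -1.46 ± 0.14 in wild-type and -1.09 ± 0.14 in Rap1 -/- liver (SD, n = 4), without overlap. At chr6:5311375-5328075 (F), in contrast, the 2 detected probes differed by -0.35 and 0.46, which gave an average of 0.05 ± 0.10. Probes of 1 interval could thus have like or opposite differences.

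Both strands were named for 970 intervals. A detected probe was present on both strands in 414 of them (42.7%), on F alone in 198, on R alone in 201 and on neither in 157. Of the 2200 intervals with probes on 1 strand only, 1032 (46.9%) had a detected probe. In the 414 pairs the median signals were -1.33 for F and -1.38 for R, and the strands of a pair lay a median of 1.20 apart. The pairs with the highest signal on the dimmer strand were led by chr17:39960567-39992817, where 4 F probes averaged 5.07 ± 0.10 in wild-type and 4.89 ± 0.19 in Rap1 -/- liver and 5 R probes 3.20 ± 0.13 and 2.96 ± 0.18 (SD, n = 4). It was followed by chr16:8738782-8830148, at 2.12 and 2.07 on F and 1.97 and 1.76 on R in wild-type and Rap1 -/- liver. Then came chr17:71242333-71273533, at 3.92 and 3.77 on F and 1.93 and 1.80 on R. In chr7:108209996-108216032 the strands were far apart, with F at 1.80 and 1.72 and R at 7.02 and 7.08. The next pairs were chr6:129151512-129208737, where F was at 3.20 and 2.98 and R at 1.58 and 1.74, and chr11:19778600-19815950, where F was at 1.59 and 1.53 and R at 1.87 and 1.64. The group means of each of these 6 pairs differed by at most 0.24 on either strand.

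Genotype differences of the 2 strands were compared within pairs. Both strands had a difference below 0 in 219 pairs, both above 0 in 54, and the signs were opposite in 141. With quantile normalization 163 were both below and 85 both above. A limma fit of the F minus R signal over all 629 pairs of the array with both strands tested found 0 pairs past an adjusted p of 0.05. Of the 414 pairs, 16 (3.86%) were past an unadjusted p of 0.05, against 5.72% of all 629, with a smallest adjusted p of 0.462.

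In the 4 pairs with the smallest p, the F mean was lower and the R mean higher in Rap1 -/- liver. At chr3:41143423-41359623 the mean of 3 F probes went from -0.38 ± 0.13 in wild-type to -0.58 ± 0.10 in Rap1 -/- liver and the R probe from -1.15 ± 0.04 to -0.67 ± 0.19 (SD, n = 4), an F minus R difference of -0.68 ± 0.17. A_30_P01030633 of the overlapping name chr3:41325168-41332366 (R), detected on 8 arrays, went the other way from that R probe, by -0.61 ± 0.33. At chr17:88225376-88238756 the F minus R difference was -0.93 ± 0.25 and at chr15:32167516-32174417 it was -1.17 ± 0.33. At chr4:136856064-136877219, 3 F probes averaged -1.83 ± 0.18 in wild-type and -2.32 ± 0.16 in Rap1 -/- liver (SD, n = 4), while 5 R probes averaged 3.53, 3.66, 3.69 and 3.73 against 3.66, 3.90, 3.96 and 3.72. The F values did not overlap and the R values did, for an F minus R difference of -0.64 ± 0.20. The R probes of the overlapping name chr4:136856064-136875614 that were detected on 8 arrays were all lower, by -0.25 to -0.04. The fit averaged all tested probes of a strand, and the adjusted p-values were 0.462, 0.462, 0.464 and 0.634 in this order (limma), so that none passed.

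**Figure D4:**
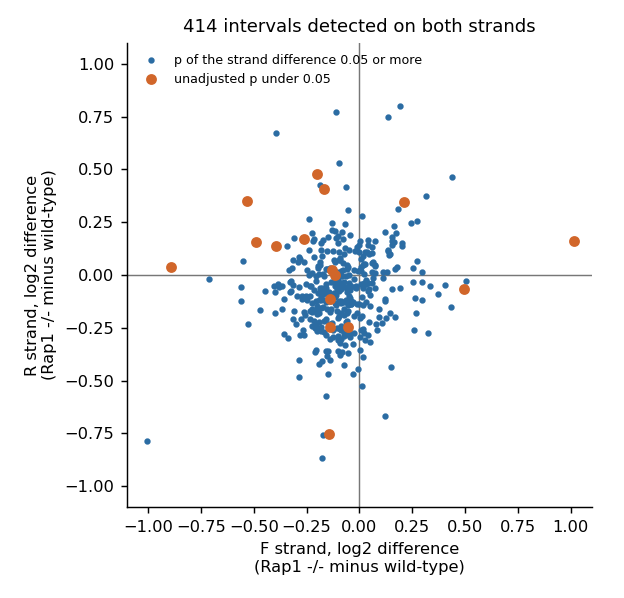
Genotype difference (log2, Rap1 -/- minus wild-type) of the F strand against that of the R strand for the 414 intervals with detected probes on both strands, each the mean over the detected probes of that strand. Orange points are the 16 pairs with an unadjusted p under 0.05 for the difference between strands; 219 pairs lie at the lower left and 54 at the upper right.

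Variation between livers of the same genotype was shared in part within an interval. Over 8 arrays, after subtraction of each genotype's mean, 2 probes of the same name correlated with a median r of 0.45 (3595 pairs of probes), and probes of different names within 10 kb on the same strand with one of 0.29 (2578 pairs). Probes on opposite strands of 1 interval had a median r of 0.12 (2345 pairs) and probes on different chromosomes one of 0.04. The spread was wide. For probes of the same name the lower quartile of r was 0.008, and 47.1% of pairs were over 0.5, against 16.1% on different chromosomes. All these pairs share the arrays and their scaling, and the values are a description. Distances between probes inside an interval are not known, and strand and distance cannot be told apart in these values.

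The most variable interval was chr19:5834117-5835940 (R), with a within-genotype SD that exceeded that of every other detected interval probe for 2 of its 3 probes. The mean of the 3 was 4.20, 5.18, 5.56 and 5.45 in wild-type replicates 1 to 4 and 1.77, 4.63, 3.40 and 5.73 in Rap1 -/- replicates 1 to 4. Rap1 -/- replicates 1 and 3 were below every wild-type liver, and replicate 4 was above all of them. The difference of -1.21 ± 0.75 for the average of the name was therefore no larger than the spread (unadjusted p = 0.142, adjusted p = 0.825, limma). The median within-genotype SD of all detected interval probes was 0.25, against 0.20 for the other probes detected on 8 arrays. Next in variation were A_30_P01027133 at chr18:35973241-35973632 (F), at -0.30 in Rap1 -/- replicate 1 and between -3.53 and -1.64 elsewhere, and A_30_P01017533 at chr9:20313342-20323517 (R), at 0.25 in wild-type replicate 4 and between -3.41 and -2.16 elsewhere. In both, a single liver set the spread.

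The variable interval belongs to the locus with the most detected probes, a stretch of 77.1 kb at chr19:5771425-5848475 where 7 names hold 27 probes and 25 of these were detected. Of the other 3 names on the R strand, 2 had differences near 0. The 3 probes of chr19:5798135-5800557 (R) had signals of 4.17 to 4.98 and differences of -0.03 to 0.02, and the 3 of chr19:5801802-5802597 (R) signals of 6.24 to 8.88 and differences of -0.05 to 0.03. The third R name, chr19:5771425-5848475 (R), had 1 detected probe, at -0.17, 0.39, -0.08 and -0.77 in wild-type and 0.71, -0.18, 0.54 and 0.02 in Rap1 -/- liver. It had the largest upward difference of the locus, 0.43, with Rap1 -/- replicates 1 and 3 highest. All 10 F probes that span the whole stretch were detected, with differences from -0.54 to 0.10. In all, 18 of the 25 differences were below 0, and the smallest unadjusted p was 0.120. Within the locus the 2 Rap1 -/- livers with low signal at chr19:5834117-5835940 (R) were not low at the bright R names.

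**Figure D5:**
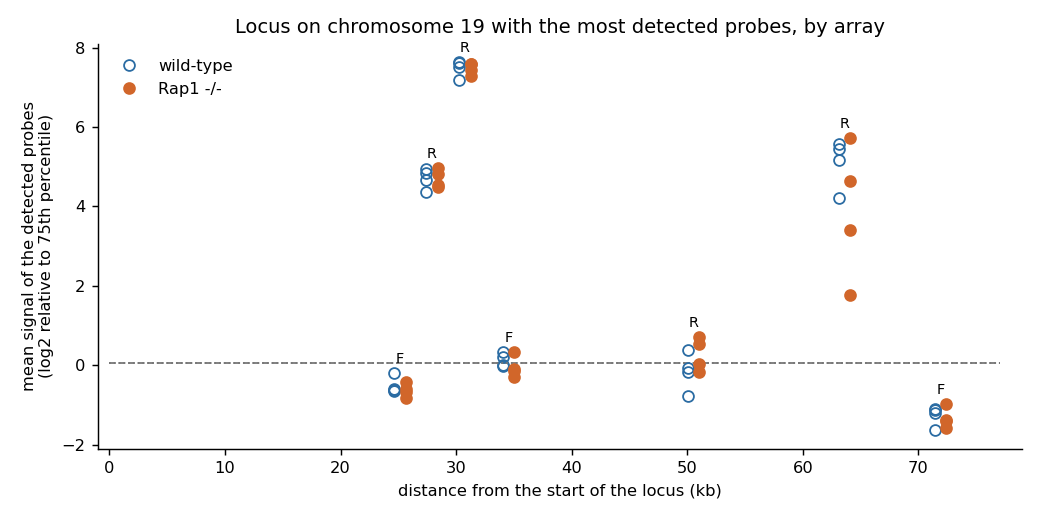
Mean signal of the detected probes (log2 relative to the array's 75th percentile) of each of the 7 names in the locus on chromosome 19, at the middle of the name in kb from the start of the locus, with strand letters above. The 2 names that span the whole locus are drawn at about 34 kb (F, with a dashed line over its span) and 50 kb (R); open points are wild-type and filled points Rap1 -/- livers, and the R name near 64 kb shows the spread from 1.77 to 5.73.

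Some interval probes outside the rule were detected in 1 genotype only. On these chromosomes, 360 of 14596 interval probes (2.47%) were detected on exactly 4 arrays, against 625 (1.58%) of the 39487 other probes. Among these, 8 interval probes were detected in the wild-type livers only and 3 in the Rap1 -/- livers only, against 7 and 2 others. They were dim throughout, and because a dim probe has only a bound, differences are given as at least a certain fold, each dim value being raised to the lowest signal well above background on its array. The largest bound was for A_30_P01024210 at chr4:88745770-88774130 (R), with -3.98, -5.51, -4.18 and -4.79 in wild-type and -2.86, -3.11, -1.69 and -3.38 in Rap1 -/- liver, at least 2.32-fold higher. The other 2 of its kind, chr4:130039725-130069550 (F) and chr18:57124435-57134910 (R), were at least 1.30-fold and 1.33-fold higher. Among the 8 not detected in Rap1 -/- liver the bounds ran from 1.16 to 1.80-fold. The last belongs to A_30_P01026615 at chr9:66976750-67014625 (F), at -3.26 ± 0.62 in wild-type and -5.22 ± 0.45 in Rap1 -/- liver (SD, n = 4). These probes were picked for a detection that differs between the genotypes, so their differences are a description and no p is given. Whether their number exceeds what nearness to the detection threshold alone would give was not tested.

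Named long non-coding RNA genes served as a comparison. Of 41 genes listed, 27 were matched to 41 probes by accession, and 33 probes of 24 genes were tested. None passed after adjustment, 1 was higher and 1 lower at an unadjusted p of 0.05, and the median difference was -0.04. The lower one was a probe of Norad, an RNA that binds PUMILIO proteins, at -0.38 ± 0.05 in wild-type and -0.64 ± 0.14 in Rap1 -/- liver (SD, n = 4). Its difference was -0.26 ± 0.10, while the other 3 Norad probes had differences from -0.03 to 0.11. The higher one, Jpx, an activator of Xist, was detected on 1 wild-type and 3 Rap1 -/- arrays and differed by 0.45 ± 0.19. Snhg12, a host gene of small nucleolar RNAs, differed by -0.34 ± 0.16. Malat1, a nuclear speckle RNA, differed by 0.45 ± 0.21, with 0.01, 0.37, -0.01 and -0.47 in wild-type and 0.79, 0.12, 0.59 and 0.19 in Rap1 -/- liver. The adjusted p-values of these 4 were 0.809 to 0.819 (limma).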

How the data were processed

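Total RNA from 8 livers, 1 mouse per array and given as biological replicates in the labels, was labelled with 1 dye and hybridized to Agilent mouse arrays of 62976 spots. Intensity values were deposited by the authors as scanner output, which per the file headers was read with Feature Extraction 10.7.3.1 and is background-subtracted but not scaled across arrays. A second set of log2 values, processed by the authors, differed from normexp correction and quantile normalization of the same scans by a median of 0.00167, so its scale is log2 and it was used as an alternative. Control spots and outlier spots (145 to 205 per array) were left out, spots of 1 probe were averaged, and log2 processed intensities were scaled to the 75th percentile of each array. No spot was saturated. Probes well above background on at least 4 arrays entered limma 3.58.1 (lmFit and eBayes, R 4.3.3) with Benjamini-Hochberg adjustment over all of them. The strand fit used the difference of the mean F and mean R signals per array. The mean signal intensity column was not in the files used here, and normexp was run on the median signal with an offset of 50. Intervals are mm9 positions, and no annotation of that build was used. Gene symbols of 26056 other probes came from RefSeq accessions. Slide 1 and slide 2 each held both genotypes. After each probe's genotype mean was subtracted, same-numbered arrays of the 2 genotypes correlated at -0.09 to 0.15, and the numbers were not taken as pairs. The number of arrays limits the precision.

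The interval probes and the lists were chosen with earlier results of these data known. The probes named were the 8 with the smallest p in each direction, the 10 with the highest signal, the 4 with the largest spread, those next to the detection threshold, the shortest and longest intervals, the 6 strand pairs with the highest signal on the dimmer strand, the 4 with the smallest strand p, and probes detected in 1 genotype only. The fits were tested on simulated data.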

Additional observations from a re-analysis of the deposited data

Results flagged for a closer look

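In groups of 4 livers, a single liver was set apart from the other 3 in 14 of 210 groups examined. Chance gives about 1 in 20 for independent groups that were not picked by their values. Many groups here came from probes picked by p, spread or detection, and some share probes, so that rate is not the expectation for them. The measure is the gap between the extreme liver and its nearest neighbour as a share of the whole range of the group, and a group was picked out when this share was above the limit of the Dixon test for 4 values.

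Among single probes, the ratio was 0.976 for A_30_P01031542 at chr7:99879368-99889978 (F) in wild-type liver, where replicate 4 was lowest, and 0.919 for A_30_P01027133 at chr18:35973241-35973632 (F) in Rap1 -/- liver, where replicate 1 was highest. It was 0.835 for A_30_P01022839 at chr13:112337405-112356455 (F) in wild-type liver, where replicate 2 was highest. For A_30_P01022504 at chr12:52880692-52933444 (F) it was 0.903 and for A_30_P01024982 at chr15:102920547-102933472 (F) it was 0.893, both in wild-type liver with replicate 4 highest, and both detected in no Rap1 -/- liver. Snhg12 probe A_66_P100249 had 0.997 in Rap1 -/- liver, with replicate 1 highest.

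Among means over the detected probes of a name, chr4:136856064-136877219 (F) had 0.863 in Rap1 -/- liver, with replicate 2 lowest, which counts a second time as 1 strand of a pair. The ratio was 0.898 for chr17:27703181-27716306 (R) in Rap1 -/- liver, with replicate 2 lowest, 0.839 for chr2:173421598-173485043 (R) in wild-type liver, with replicate 4 lowest, and 0.844 for chr7:99879368-99889978 (F) in wild-type liver, with replicate 3 highest. Of the strand pairs, chr17:39960567-39992817 had 0.886 on F in Rap1 -/- liver, with replicate 2 lowest, chr7:108209996-108216032 had 0.874 on R in Rap1 -/- liver, with replicate 3 highest, and chr17:88225376-88238756 had 0.974 on R in wild-type liver, with replicate 1 highest.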

How the results depend on the processing

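No interval probe passed an adjusted p of 0.05 under any setting in which the fit was run. The smallest adjusted p was 0.115 without Rap1 -/- replicate 3 and at most 0.964, with no filter on dim probes. The median difference stayed below 0 throughout, from -0.09 to -0.05 when 1 array was left out. The count at an unadjusted p under 0.05 was 254, and 202 to 308 when 1 array was left out. It was 159 with no filter on dim probes and 153 of 2261 names with averaged probes, an alternative chosen after seeing the data that has fewer features. With the replicate block 305 probes were past the unadjusted threshold, and none after adjustment (smallest adjusted p = 0.723). The strand fit gave 0 pairs with the replicate block, as in every other setting, with a smallest adjusted p from 0.139 to 0.902. The looser flag for signal significantly above local background on all arrays gave 7009 detected probes in place of 4190 and 687 pairs in place of 414, and pairing by an overlap of at least 1 base gave 820 pairs. When 1 array was left out, detected probes numbered 4195 to 4558 and pairs 414 to 453. The difference of 0.01 for A_30_P01027133 at chr18:35973241-35973632 (F) turned to -0.93 within slide 2 and ran from -0.76 without Rap1 -/- replicate 1 to 0.34 without wild-type replicate 4. The 16 probes with the smallest p kept their direction in all 304 values recomputed, but 13 of them had a difference over 1.5 times smaller with normexp and quantile normalization, and 2 then had an unadjusted p of 0.0724 and 0.121. Signal over background limits what could be seen, since 37.6% of the interval probes were not well above background on any array and the median SE was 0.17.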
